A study of Mus musculus with 4 samples.

Results

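Interferon-stimulated genes are the genes a cell switches on when it senses interferon, and 39 of them were followed here through a healing brain lesion. Of these, 37 were measured among 32285 genes in each count table, and Mx1 and Mx2 were not analysed here. The assay was Visium, in which a thin tissue slice lies on a grid of barcoded spots and RNA molecules are counted per spot by unique molecular identifiers (UMIs). A spot covers several cells, so that fewer cells of a type and less RNA per cell cannot be told apart. The tissue was cortex of mice given a photothrombotic (PT) injury, a focal stroke in which a light-activated dye clots cortical vessels. Of the 8 slices, each from a different mouse, 1 was at rest, 1 was taken at 2 days post injury (dpi), 2 at 7 dpi and 4 at 21 dpi. The mice were wild type (WT), apart from 2 of the 4 at 21 dpi, which were Cthrc1(creER); R26(DTA) and are called deleter below. In deleter mice tamoxifen-activated Cre, driven by Cthrc1, a gene of myofibroblasts, releases a toxin that should remove the cells expressing it. The study's methods describe C57BL/6 mice of both sexes aged 7 to 21 weeks, and discarded the deleter slices because no deletion was detected.

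Each slice was divided by Col1a1, which encodes a chain of the collagen made by fibroblasts. Spots with at least 5 Col1a1 UMIs per 10000 UMIs of the spot are called Col1a1-rich, spots 1 to 3 grid steps away from these form the ring, and the rest are other spots. The threshold took in 1373 spots, the lowest at 5.01 and the highest left out at 4.99, and 77 spots lay within 10% above it and 86 within 10% below. The Col1a1-rich spots numbered 3 at rest, 26 at 2 dpi, 112 and 392 at 7 dpi, 170 and 203 in WT at 21 dpi, and 193 and 274 in deleter slices. Of those at 7 dpi, 35 and 320 were not at the tissue edge. The study places brain fibroblasts at borders of the central nervous system before injury. Col1a1-rich spots are therefore not taken as the same as the lesion. Col1a1 chose these spots, so its own level and that of fibroblast genes in them is no result. Slices held 11332780 to 23677298 UMIs. The slice at 2 dpi was shallow in many spots, with 21.7% of them under 1000 UMIs against 0.295% at rest. Each time and genotype was on its own capture area, except that rest and 2 dpi shared one, so time and genotype cannot be told apart from capture area.

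Type I interferons (alpha and beta) bind the receptor IFNAR1 and IFNAR2, whose kinases JAK1 and TYK2 phosphorylate STAT2. With IRF9 it forms part of a complex that binds the interferon-stimulated response element (ISRE) in target promoters. Interferon gamma acts through IFNGR1 and IFNGR2, and many of its target promoters carry the gamma-activated site (GAS). In the brain the response is known from viral infection, but microglia and other cells also mount it after sterile injury and in ageing white matter.

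The promoters of 7 members are shown first, because the response element is visible in the letters of some and not of others. They are Isg15, Ifit1, Oas1a and Bst2, typical targets, and Gbp2, the member called lower at 7 than at 21 dpi in Col1a1-rich spots. The neighbouring pair Rsad2 and Cmpk2, which behaved differently in Col1a1-rich spots, is the rest. Each sequence is the 250 bases before the annotated start, from RefSeq on GRCm38.p6 (the assembly of mm10), written 5′ to 3′ on the gene's strand. Capitals mark every match, on either strand, to an ISRE-like motif, GAAA followed after any 2 bases by GAAA, or a GAS-like motif, TTC followed after any 3 bases by GAA.
The windows are chr4:156200819-156201068 (minus strand) for Isg15, chr19:34640639-34640888 (plus) for Ifit1, chr5:120907526-120907775 (minus) for Oas1a, chr8:71537473-71537722 (minus) for Bst2, chr3:142620413-142620662 (plus) for Gbp2, chr12:26456453-26456702 (minus) for Rsad2 and chr12:26468965-26469214 (plus) for Cmpk2.
Isg15: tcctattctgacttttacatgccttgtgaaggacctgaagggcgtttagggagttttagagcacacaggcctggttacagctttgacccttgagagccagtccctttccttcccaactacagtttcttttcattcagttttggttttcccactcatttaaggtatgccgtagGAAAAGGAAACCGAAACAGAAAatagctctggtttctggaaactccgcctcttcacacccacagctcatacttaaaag
Ifit1: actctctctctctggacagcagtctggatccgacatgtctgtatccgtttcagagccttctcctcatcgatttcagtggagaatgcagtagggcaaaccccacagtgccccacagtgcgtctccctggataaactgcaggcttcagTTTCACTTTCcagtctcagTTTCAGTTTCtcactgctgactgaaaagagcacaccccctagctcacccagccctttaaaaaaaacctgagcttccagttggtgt
Oas1a: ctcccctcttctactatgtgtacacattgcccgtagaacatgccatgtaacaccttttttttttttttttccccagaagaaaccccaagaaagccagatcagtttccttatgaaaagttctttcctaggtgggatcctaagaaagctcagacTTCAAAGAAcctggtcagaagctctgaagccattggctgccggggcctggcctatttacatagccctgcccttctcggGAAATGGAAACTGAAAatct
Bst2: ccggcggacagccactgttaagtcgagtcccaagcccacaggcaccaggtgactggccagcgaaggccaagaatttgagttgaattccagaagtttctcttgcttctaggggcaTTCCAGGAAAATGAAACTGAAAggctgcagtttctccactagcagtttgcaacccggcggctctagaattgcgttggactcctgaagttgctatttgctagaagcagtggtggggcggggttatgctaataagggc
Gbp2: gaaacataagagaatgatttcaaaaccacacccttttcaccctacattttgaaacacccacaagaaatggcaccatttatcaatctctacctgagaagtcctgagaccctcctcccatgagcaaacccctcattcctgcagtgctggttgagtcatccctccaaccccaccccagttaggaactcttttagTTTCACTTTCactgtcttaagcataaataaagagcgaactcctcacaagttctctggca
Rsad2: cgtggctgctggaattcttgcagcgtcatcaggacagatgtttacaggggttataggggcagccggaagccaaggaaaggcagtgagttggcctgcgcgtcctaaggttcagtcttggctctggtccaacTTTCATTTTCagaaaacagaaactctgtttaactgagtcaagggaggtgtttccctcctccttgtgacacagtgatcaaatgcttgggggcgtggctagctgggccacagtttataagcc
Cmpk2: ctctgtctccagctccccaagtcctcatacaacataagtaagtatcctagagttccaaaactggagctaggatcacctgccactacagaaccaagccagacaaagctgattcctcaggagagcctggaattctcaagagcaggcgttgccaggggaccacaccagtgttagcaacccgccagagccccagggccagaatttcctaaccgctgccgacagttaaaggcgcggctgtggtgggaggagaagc
Isg15 held 3 ISRE-like matches that overlap each other, and Ifit1, Oas1a and Bst2 held 2 each. The matches of Oas1a overlap each other, and so do those of Bst2. Oas1a and Bst2 also held 1 GAS-like match, which in Bst2 overlaps an ISRE-like match. Gbp2 and Rsad2 held 1 ISRE-like match each and Cmpk2 none in these letters.

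Over whole windows of 300 bases (250 before and 50 after the start), 28 of the 37 members were found in the RefSeq promoter table, in 32 windows. The ISRE-like motif was in 16 of these 28 members (57.1%), against 1079 of 27025 genes (3.99%). Among 51 other genes of the pathway it was in 15 (29.4%). The GAS-like motif was in 5 members (17.9%), Bst2, Ifit2, Ifitm3, Igtp and Oas1a, against 9.55% of all genes and 33.3% of the other pathway genes. Cmpk2 was not alone in lacking an ISRE-like match, since Irf7, Irf9, Lgals3bp, Slfn2 and Xaf1, among others, held none either. Of the members without this match, all but Cmpk2 were called higher in Col1a1-rich spots at both times compared below. Whether a match bears on the regional differences was not tested. A match is a string of letters and was not tested for binding.

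Summed over the 37 members, interferon-stimulated transcripts were densest in the Col1a1-rich tissue of the 6 slices at 7 and 21 dpi, and denser at 7 dpi than at 21 dpi. The sum was 34.6 and 37.7 UMIs per 10000 in the Col1a1-rich spots of the 7 dpi slices, 18.8 and 20.2 in WT at 21 dpi, and 15.3 and 11.4 in deleter slices. In the ring it was 27.3 and 17.4 at 7 dpi, 7.34 and 9.71 in WT at 21 dpi, and 9.51 and 4.38 in deleter slices. In other spots it was 12.2 and 7.11, 4.25 and 2.66, and 2.34 and 2.51. Within each of the 6 slices at 7 and 21 dpi the order was Col1a1-rich, ring, other. In all 3 regions both 7 dpi slices lay above all 4 slices at 21 dpi. These sums are descriptions, with no test, since the list was chosen with results of these data known.

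**Figure D1:**
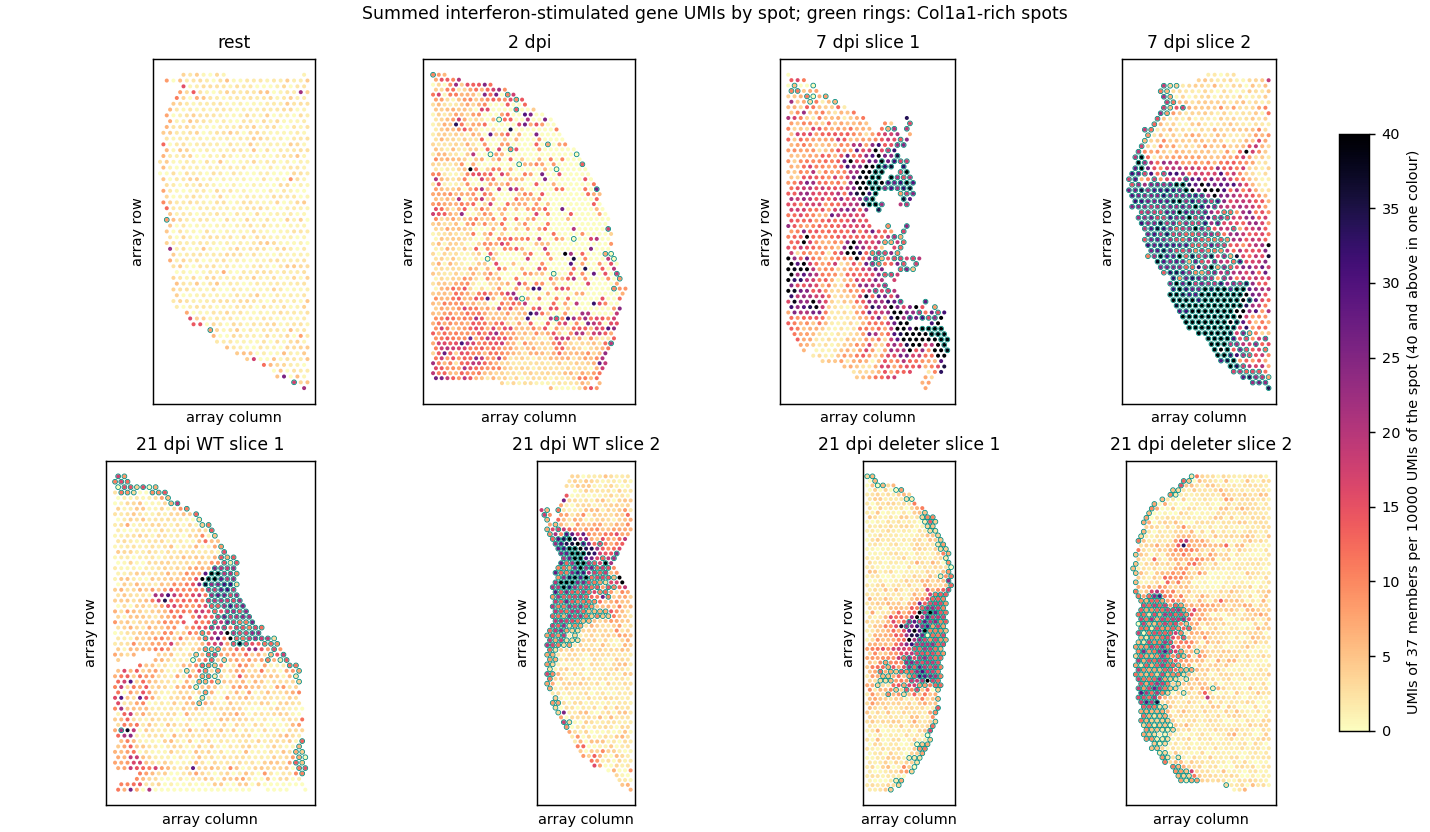
Maps of the 8 slices, with each spot coloured by its UMIs of the 37 members per 10000 UMIs of that spot (40 and above in one colour) and Col1a1-rich spots ringed in green; axes are array column and row. Dark spots, with high values, gather in and around the ringed spots at 7 dpi and in part of them at 21 dpi, and at 2 dpi they are scattered over the slice.

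**Figure D2:**
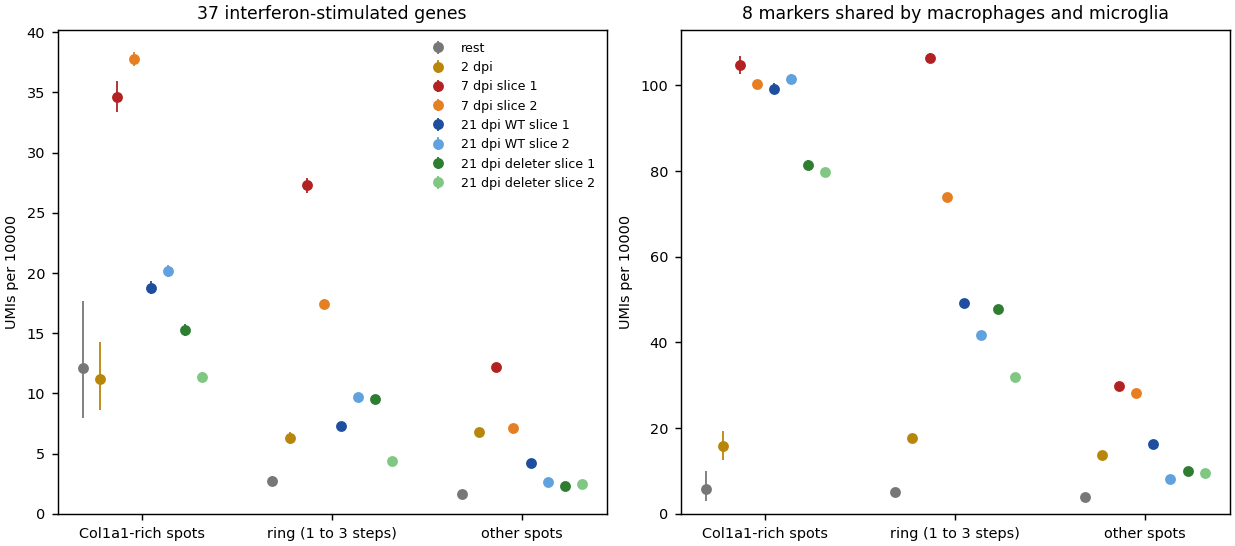
Left, the summed members, and right, 8 markers shared by macrophages and microglia, in UMIs per 10000 by region; each point is a slice and bars are 95% Poisson intervals, which cover counting error only. The members are at 34.6 and 37.7 in Col1a1-rich spots at 7 dpi and 18.8 and 20.2 in WT at 21 dpi, whereas the markers lie between 99.2 and 105 in those 4 slices.

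Macrophages and microglia are among the cells that respond to interferon in brain, and their markers were also dense in Col1a1-rich spots. Summed over Csf1r, Aif1, Tyrobp, Ctss, Cd68, C1qa, C1qb and C1qc, the level in Col1a1-rich spots was 105 and 100 UMIs per 10000 at 7 dpi, 99.2 and 101 in WT at 21 dpi, and 81.5 and 79.8 in deleter slices. In other spots it was 29.8 and 28.2, 16.3 and 8.21, and 10.0 and 9.57. All 8 markers were higher in Col1a1-rich than in other spots at both times in edgeR's test, where 24% and 27.6% of all genes were. Between 7 and 21 dpi, none of the 8 passed the test in Col1a1-rich spots. Per 100 UMIs of these markers, the members gave 33.1 and 37.6 UMIs in Col1a1-rich spots at 7 dpi, against 18.9 and 19.9 in WT at 21 dpi. In other spots this ratio overlapped between the times, at 40.9 and 25.2 against 26.0 and 32.4. In WT at 21 dpi the markers were 6.08 and 12.3 times as dense in Col1a1-rich as in other spots and the members 4.42 and 7.58 times. At 7 dpi the markers were 3.51 and 3.55 times as dense and the members 2.84 and 5.31 times. Other marker lists differed between these regions too, in both directions. Neutrophil genes had mean sums of 0.725 in Col1a1-rich and 0.0434 in other spots at 7 dpi, and 3.33 and 0.174 in WT at 21 dpi. Plasma cell genes had 10.6 and 0.508 in WT at 21 dpi. Neuron genes were lower in Col1a1-rich spots, at 10.1 against 37.4 at 7 dpi. The part of any of these cells in the regional differences was not tested.

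To test each member between regions, the UMIs of all spots of a region were added up for every slice. Then edgeR's quasi-likelihood F test was run over all genes, with the slice as a block and Benjamini-Hochberg adjustment. The 4 WT slices at 7 and 21 dpi shared 1 fit. The spread behind the calls at either time, also with a slice left out, therefore came from slices of both times. At 7 dpi 36 of the 37 members were higher in Col1a1-rich than in other spots (adjusted p under 0.05) and none was lower, with a median log2 fold change of 2.06. Of all 14576 genes tested 24% were called higher and 23.4% lower, with a median of -0.03. In WT at 21 dpi 36 of 37 were again higher, with a median of 2.65, where 27.6% of all genes were higher and 27.6% lower. In both comparisons the member that missed was Cmpk2. In the ring, 24 members were higher than in other spots at 7 dpi, where 11.5% of all genes were, and 22 at 21 dpi in WT, where 6.59% were. None was lower, as against 6.8% and 2.2% of all genes. The median log2 difference was 1.12 and 1.43.

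The regional calls at 7 dpi leaned on 1 of the slices. Without 7 dpi slice 2, which held 392 Col1a1-rich spots against 112 in slice 1, 17 members instead of 36 passed, all of them higher. The ring calls at 7 dpi fell to 1 without slice 1 and to 7 without slice 2. At 21 dpi in WT, 33 to 36 members passed in Col1a1-rich spots with any slice left out, but the ring calls fell to 4 without WT slice 2. With 2.5 Col1a1 UMIs per 10000 as the threshold the ring calls were 6 at 7 dpi and 13 at 21 dpi. Without the slice block they were 15 and 12. The share of all genes called in each refit is not given here. From these counts of members alone, a loss particular to the members therefore cannot be told apart from fewer calls among all genes.

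The regulators of the response were all higher in Col1a1-rich than in other spots. Stat2, a subunit of the ISRE-binding complex, was counted at 0.449 and 0.626 UMIs per 10000 in Col1a1-rich spots at 7 dpi and 0.281 and 0.255 in other spots, a log2 difference of 1.10 ± 0.20 (standard error, SE; edgeR adjusted p = 0.00127). At 21 dpi in WT it was 0.349 and 0.396 against 0.177 and 0.199. Irf9, its DNA-binding partner, was 0.520 and 0.455 against 0.250 and 0.217 at 7 dpi. Both differences were small beside that of Irf7, the factor that amplifies type I interferon production. Irf7 was 1.20 and 1.94 in Col1a1-rich and 0.419 and 0.133 in other spots at 7 dpi, a log2 difference of 2.80 ± 0.43 (edgeR adjusted p = 0.000434). The lower Irf7 value in Col1a1-rich spots, 1.20, was well above the higher value in other spots. Usp18, which removes ISG15 from proteins and restrains the receptor, was higher by 1.43 ± 0.29 at 7 dpi (edgeR adjusted p = 0.00205) and by 2.63 ± 0.34 at 21 dpi (edgeR adjusted p = 7.55e-05). In the ring Irf7 and Usp18 passed at 7 dpi, and Usp18 at 21 dpi.

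All 5 nucleic acid sensors were higher in Col1a1-rich spots at both times, by a median log2 difference of 2.18 at 7 dpi and 2.63 at 21 dpi. Ifih1 and Ddx58 encode MDA5 and RIG-I, sensors of double-stranded RNA, and Dhx58 their relative LGP2. Zbp1, a sensor of Z-form nucleic acid that can trigger necroptosis, was counted at 0.555 and 0.564 UMIs per 10000 in Col1a1-rich spots at 7 dpi and 0.0824 and 0.0412 in other spots. Its difference was 3.29 ± 0.28 at 7 dpi (edgeR adjusted p = 1.26e-05) and 4.31 ± 0.35 in WT at 21 dpi (edgeR adjusted p = 3.59e-06). Ifi204, of the DNA-sensing Ifi200 family, was higher by 2.48 ± 0.34 and 3.45 ± 0.40. In the ring 4 of the 5 passed at each time, all but Ddx58. Reads of Ifi204 may be shared with its close paralogs, so its level is uncertain.

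The 5 genes of the OAS family, which make or resemble enzymes that activate RNase L on double-stranded RNA, were also all higher in Col1a1-rich spots at both times. Oas1a, the member of the family with the clearest signal, was 0.401 and 0.396 UMIs per 10000 at 7 dpi against 0.102 and 0.0787 in other spots. Its difference was 2.28 ± 0.23 (edgeR adjusted p = 3.2e-05). Oas3 and Oasl1 rested on few molecules, 110 and 188 UMIs over the 4 WT slices at 7 and 21 dpi. In the ring, Oas1a and Oas3 passed at 7 dpi and Oas1a at 21 dpi. Oas1a shares long stretches with Oas1g, so reads may be split between them.

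The IFIT family encodes proteins that bind foreign RNA ends. Ifit1, Ifit2, Ifit3 and Ifit3b lie side by side on chromosome 19 and all 4 were higher in Col1a1-rich spots. Ifit1 was 0.791 and 0.744 UMIs per 10000 there at 7 dpi and 0.285 and 0.137 in other spots, with a difference of 2.05 ± 0.28 (edgeR adjusted p = 0.000185). At 21 dpi in WT it was 0.443 and 0.613 against 0.0623 and 0.0349, a difference of 3.34 ± 0.31 (edgeR adjusted p = 9.02e-06). Ifit3 was 0.945 and 1.11 against 0.538 and 0.227 at 7 dpi, and 0.523 and 0.743 against 0.145 and 0.114 at 21 dpi. In every pair the Col1a1-rich spots were above the other spots of the same slice. Ifit3 and Ifit3b are near copies, so their split is uncertain.

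Among the other antiviral effectors 13 of 14 passed in Col1a1-rich spots at each time. Isg15, a ubiquitin-like protein attached to other proteins, was 1.24 and 1.69 UMIs per 10000 in Col1a1-rich spots at 7 dpi, 1.07 and 0.825 in the ring and 0.424 and 0.227 in other spots. Its Col1a1-rich difference was 2.32 ± 0.27 (edgeR adjusted p = 7.75e-05). Bst2, or tetherin, which holds budding virus at the membrane, was 3.81 and 4.66 in Col1a1-rich spots at 7 dpi and 1.02 and 0.676 in other spots. Ifi27l2a, a small membrane protein induced strongly by type I interferon, was 8.19 and 5.36 in Col1a1-rich spots, 6.13 and 2.08 in the ring and 2.20 and 0.789 in other spots. For Ifi27l2a the ring of slice 1 was above the Col1a1-rich spots of slice 2. Its Col1a1-rich difference at 7 dpi, 2.42 ± 0.43 (edgeR adjusted p = 0.00104), passed in 13 of 14 alternative analyses, with adjusted p up to 0.0785.

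Ifitm3, which blocks virus entry at endosomes, was 3.22 and 4.88 in Col1a1-rich spots at 7 dpi and 3.70 and 3.48 in WT at 21 dpi, against 0.302 to 1.01 in other spots of the 4 slices. Lgals3bp, a secreted glycoprotein that binds galectins, was 4.53 and 4.97 in these spots at 7 dpi, then 2.87 and 3.04 in WT at 21 dpi, against 0.291 to 1.94 in other spots. Trim30a, a ubiquitin ligase, was 0.815 and 0.669 at 7 dpi against 0.213 and 0.167. Xaf1, a proapoptotic protein, was 0.390 and 0.603 against 0.256 and 0.215. Each of these 4 passed at both times. The steepest difference of the effectors at 7 dpi was that of Slfn2, of the Schlafen family (edgeR adjusted p = 2.55e-06), with 0.956 and 0.860 in Col1a1-rich spots, and it was 3.25 ± 0.21 on the log2 scale in WT at 21 dpi.

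Cmpk2 stood apart from its neighbour Rsad2. Rsad2 encodes viperin, an enzyme that makes an RNA chain terminator, and Cmpk2 a mitochondrial nucleotide kinase that supplies its substrate. Both lie on chromosome 12 with 12751 bases between them (mm10). Cmpk2 was 0.213 and 0.296 UMIs per 10000 in Col1a1-rich spots at 7 dpi and 0.294 and 0.253 in other spots, a log2 difference of -0.01 ± 0.22 (edgeR adjusted p = 0.988). At rest it was 0.232 in other spots, within the range of the injured slices. In WT at 21 dpi the difference was -0.52 ± 0.22 (edgeR adjusted p = 0.0638), and in deleter slices -1.12 ± 0.21 (edgeR adjusted p = 0.00184). Rsad2 was 0.472 and 0.519 in Col1a1-rich spots at 7 dpi, 0.0859 and 0.0487 in other spots and 0.00891 in other spots at rest, a difference of 2.90 ± 0.33 at 7 dpi (edgeR adjusted p = 6.51e-05). The sign of the Cmpk2 value at 7 dpi turned in 8 of 14 alternatives, between -0.32 and 0.28, and passed in none of them.

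The interferon-inducible GTPases, which attack the vacuoles of intracellular parasites and respond above all to interferon gamma, were all higher in Col1a1-rich spots. Gbp2 was 0.283 and 0.419 UMIs per 10000 in Col1a1-rich spots at 7 dpi against 0.241 and 0.101 in other spots. In WT at 21 dpi it was 0.872 and 0.820 against 0.135 and 0.0496. Its difference was 1.41 ± 0.41 at 7 dpi (edgeR adjusted p = 0.0167), which passed in 12 of 14 alternatives with adjusted p up to 0.662, and 3.20 ± 0.39 at 21 dpi (edgeR adjusted p = 5.61e-05). The median over the 5 GTPases was 1.41 at 7 dpi and 3.20 at 21 dpi. Whether the regional difference changed between the times was tested directly. No member passed that interaction test in edgeR, where 0.0343% of all genes were called higher and 0.165% lower. In edgeR 7 had an unadjusted p under 0.05, and DESeq2 called 1 member among 194 genes. The interaction for Gbp2 was -1.78 ± 0.56 (edgeR adjusted p = 0.201). The other GTPases, Gbp3, Igtp, Ifi47 and Iigp1, belong to families of close copies and their counts may be shared.

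**Figure D3:**
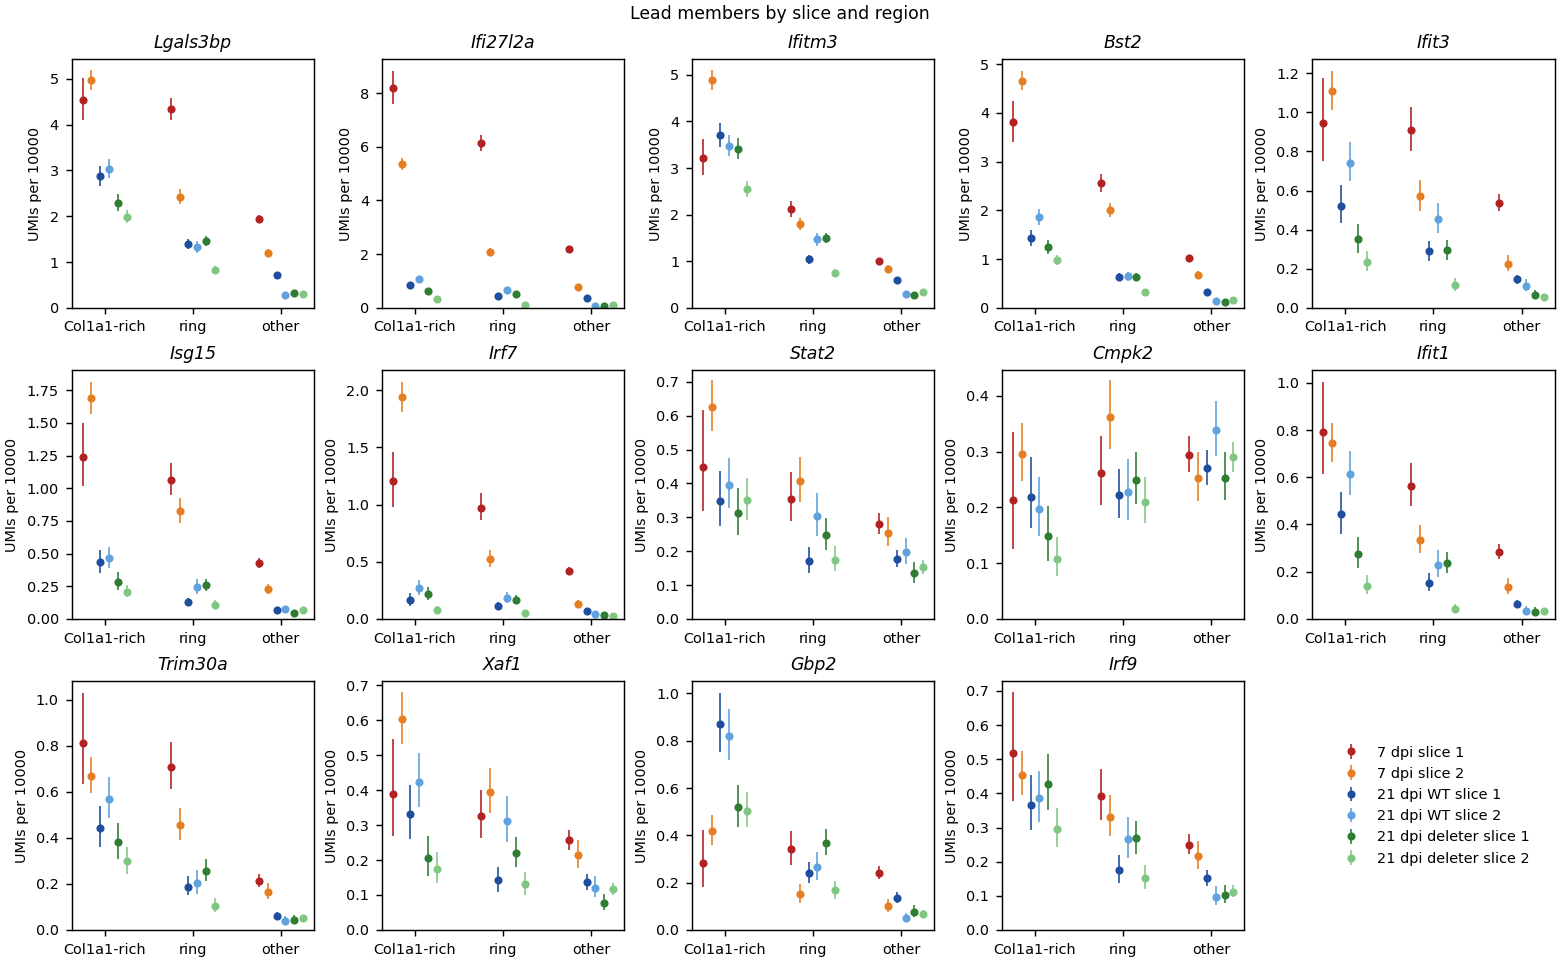
The 14 members with most UMIs in the WT slices at 7 and 21 dpi, in UMIs per 10000 by region in the 6 slices at 7 and 21 dpi, deleter included; each point is a slice, bars are 95% Poisson intervals, and each panel has its own scale from 0. Most panels fall from Col1a1-rich to other spots, Cmpk2 lies between 0.107 and 0.362 in these 6 slices, and in Col1a1-rich spots Gbp2 is higher in WT at 21 dpi than at 7 dpi.

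How far the signal reached from the Col1a1-rich spots differed between the slices. In WT at 21 dpi the summed members fell from 18.8 and 20.2 UMIs per 10000 in Col1a1-rich spots to 10.5 and 13.8 in the next spots, 6.18 and 7.91 at 2 steps and 4.81 and 4.83 at 3 steps. In 7 dpi slice 2 they fell from 37.7 to 19.9, 17.7 and 12.8 at 1, 2 and 3 steps and to 4.52 at 9 to 12 steps. In 7 dpi slice 1 they stayed at 28.2, 30.4 and 23.3 over the first 3 steps and were still 12.2 at 9 to 12 steps. From 4 steps outwards the WT slices at 21 dpi stayed under 5, while the 7 dpi slices differed from each other in how far the signal reached. In deleter slices the sum was 15.3 and 11.4 in Col1a1-rich spots and 5.41 and 2.67 at 3 steps. These are levels of single slices, with no test.

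**Figure D4:**
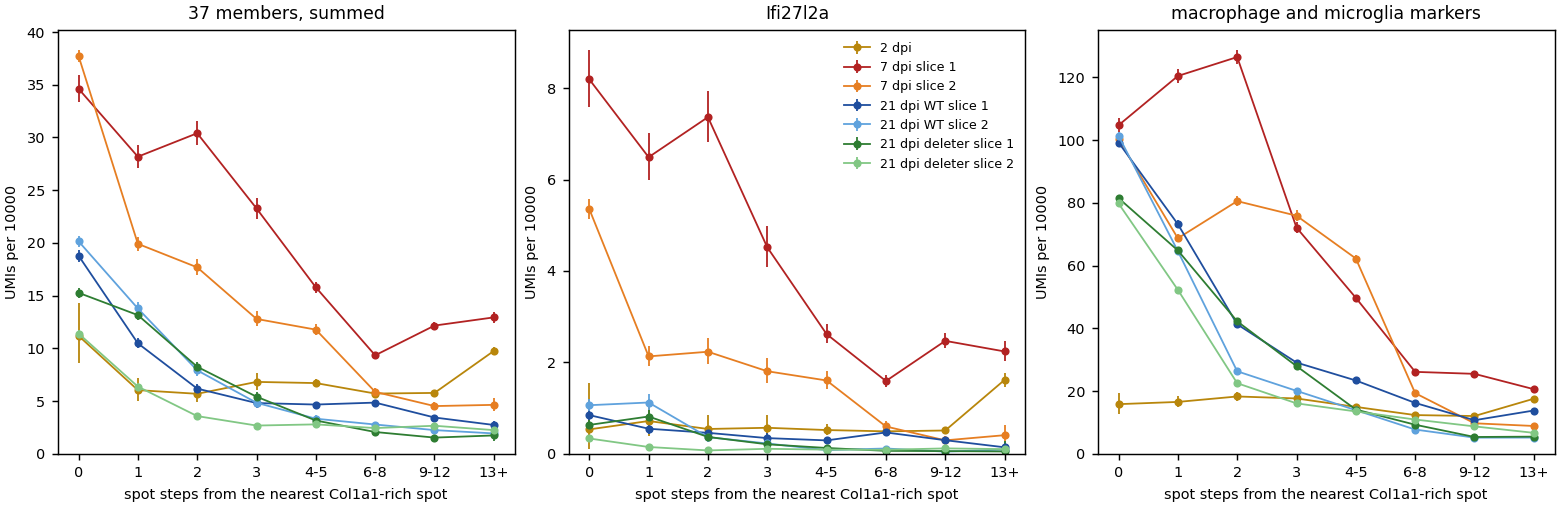
UMIs per 10000 against the number of spot steps from the nearest Col1a1-rich spot (0 is a Col1a1-rich spot, the last class is 13 and above), for the summed members, Ifi27l2a and the macrophage and microglia markers; a line per slice, bars are 95% Poisson intervals, and the slice at rest is left out. For the summed members the WT lines at 21 dpi are at 4.81 and 4.83 by 3 steps, while 7 dpi slice 1 is at 23.3 there.

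In Col1a1-rich spots 12 of 37 members were higher at 7 dpi than in WT at 21 dpi (edgeR adjusted p under 0.05), where 1.6% of all 12912 genes were, and 1 was lower, where 2.3% were. The median log2 difference of the members was 0.71, against 0 for all genes. Those higher were Ifi27l2a, Irf7, Isg15, Bst2, Oas1a, Slfn2, Zbp1, Rsad2, Ifit2, Rtp4, Lgals3bp and Ifi204. The member that was lower was Gbp2. The sexes of the mice differed with time as well. Xist, expressed from the inactive X chromosome, was at 1.42 to 1.79 UMIs per 10000 in the Col1a1-rich spots of both 7 dpi slices and at most 0.00447 in WT at 21 dpi, so time cannot be told apart from sex here.

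Ifi27l2a changed most in absolute terms. It was 8.19 and 5.36 UMIs per 10000 in Col1a1-rich spots at 7 dpi against 0.845 and 1.06 in WT at 21 dpi, or 6.78 ± 2.01 against 0.953 ± 0.153 (SD, n = 2 slices each), a 7.11-fold ratio. The log2 difference was 2.82 ± 0.24 (SE; edgeR adjusted p = 0.000296). The groups did not overlap in any region, since other spots were 2.20 and 0.789 at 7 dpi and 0.349 and 0.0809 at 21 dpi. At 7 dpi this gene alone gave 23.7% and 14.2% of the members' UMIs in Col1a1-rich spots, and at 21 dpi 4.50% and 5.27%. Without it the sum was still 26.4 and 32.4 at 7 dpi against 17.9 and 19.1 at 21 dpi.

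Irf7 was 1.20 and 1.94 UMIs per 10000 at 7 dpi against 0.161 and 0.270, a log2 difference of 2.88 ± 0.28 (edgeR adjusted p = 0.000861). Isg15 was 1.24 and 1.69 against 0.434 and 0.463, a difference of 1.73 ± 0.19 (edgeR adjusted p = 0.00159). Bst2 was 3.81 and 4.66 against 1.43 and 1.86, a difference of 1.37 ± 0.18 (edgeR adjusted p = 0.00335). In these genes both 7 dpi slices were above both WT slices at 21 dpi by more than the slices of a time differed. Oas1a was 0.401 and 0.396 against 0.143 and 0.151, a difference of 1.42 ± 0.22 (edgeR adjusted p = 0.00711). Lgals3bp changed less, from 4.53 and 4.97 to 2.87 and 3.04, a difference of 0.69 ± 0.15 (edgeR adjusted p = 0.0357), and passed in 6 of 12 alternatives. Ifi27l2a, Irf7, Isg15, Bst2, Slfn2 and Gbp2 passed in all 12, Oas1a in 11 and Zbp1 in 10. Rsad2 passed in 8 (edgeR and DESeq2 adjusted p up to 0.136), Ifit2 in 7 (up to 0.163), Ifi204 in 7 (up to 0.350) and Rtp4 in 6 (up to 0.278).

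Other members with high counts did not pass. Ifitm3 differed by 0.18 ± 0.19 (edgeR adjusted p = 0.71), with 3.22 and 4.88 at 7 dpi on either side of 3.70 and 3.48. Stat2 differed by 0.58 ± 0.20 (edgeR adjusted p = 0.174), Irf9 by 0.34 ± 0.19 (edgeR adjusted p = 0.437), Ifit1 by 0.52 ± 0.20 (edgeR adjusted p = 0.221) and Ifit3 by 0.71 ± 0.20 (edgeR adjusted p = 0.0948). Of the 4 regulators, Irf7 was the one that passed. Of the 5 GTPases none was higher at 7 dpi. Gbp2 was 0.283 and 0.419 at 7 dpi against 0.872 and 0.820 at 21 dpi, a log2 difference of -1.18 ± 0.20 (edgeR adjusted p = 0.00989). Igtp also had both 7 dpi slices, 0.272 and 0.298, under both at 21 dpi, 0.304 and 0.333, but did not pass (-0.15 ± 0.21, edgeR adjusted p = 0.793).

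Counted without a test, 25 of the 37 members had both 7 dpi slices above both WT slices at 21 dpi in Col1a1-rich spots, as had 23.9% of all genes with at least 20 UMIs, and 2 had both below, as had 23.5%. In the ring 32 of 37 had both above, against 23.6%, and none both below, against 28.7%. In other spots 32 of 36 had both above, against 21.4%, and none both below, against 17.9%. In the ring 13 members passed edgeR's test, all higher at 7 dpi, where 3.28% of all genes were and 0.714% were lower, with a median difference of 1.15. Of the 8 macrophage and microglia markers 3 were also higher in the ring at 7 dpi, and their part in the members' calls there was not tested. In other spots none of 35 tested passed, although the median was 1.39 and 28 had an unadjusted p under 0.05. Of all genes edgeR called 0.00687% higher and 0.0137% lower. DESeq2 called 9 members there among 143 of 14554 genes, and edgeR without a filter on low counts 19 among 321 of 21143. Fewer members passed in the ring without 7 dpi slice 1 and in Col1a1-rich spots without 7 dpi slice 2. Each of these refits left 1 slice at 7 dpi. The share of all genes called in them is not given here, so a loss particular to the members is not shown.

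Markers of other cells also differed between 7 and 21 dpi in Col1a1-rich spots. Of the marker lists, 3 of 5 tested T and NK cell genes and 2 of 2 plasma cell genes were lower at 7 dpi. So were 3 of 3 neutrophil genes and 3 of 4 astrocyte genes, and none of these was higher. Fibroblast genes are left out, since Col1a1 chose these spots. The plasma cell genes summed to 0.0354 and 0.0205 UMIs per 10000 at 7 dpi and to 8.88 and 12.4 in WT at 21 dpi. T and NK cell genes summed to 0.106 and 0.157 at 7 dpi and to 0.581 and 0.641 at 21 dpi. In other spots these genes had a mean sum of 0.616 in WT at 21 dpi. They were at 0.502 in other spots at rest, although the study calls T lymphocytes rare in uninjured brain. Their sum is therefore not taken as a measure of T cells. Gbp2 moved with these lists, while the 12 members that were higher at 7 dpi moved against them. Other lists had higher mean sums at 7 dpi than in WT at 21 dpi. These were endothelial genes (2.42 against 1.9), homeostatic microglia genes (4.15 against 2.93) and neuron genes (10.1 against 7.92). The oligodendrocyte mean was lower at 7 dpi, but the WT slices at 21 dpi differed widely (mean 64.2, SD 59.2). A shared direction therefore does not tie a member to a cell type. The part of these cells in the members' changes was not tested.

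**Figure D5:**
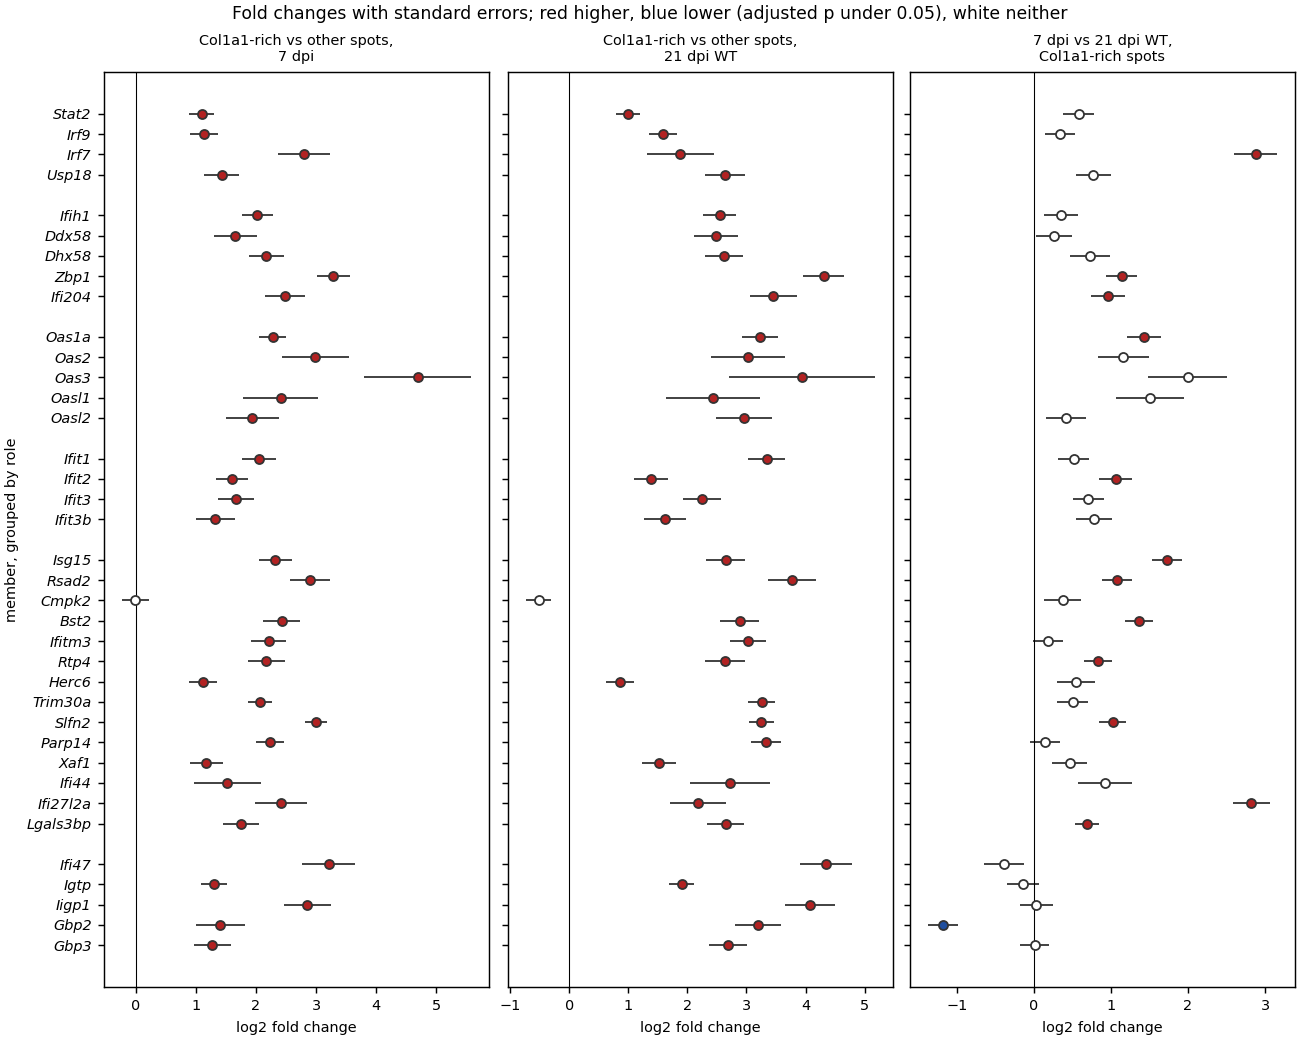
Log2 fold changes of the 37 members, grouped by role, for Col1a1-rich against other spots at 7 dpi and in WT at 21 dpi and for 7 against 21 dpi in Col1a1-rich spots; bars are standard errors, red marks members higher and blue members lower (edgeR adjusted p under 0.05), white neither. In both regional panels 36 members are red and Cmpk2 is white, and in the time panel 12 are red and Gbp2 is blue.

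Interferons themselves were barely counted. Over all 8 slices and 123344741 UMIs, Ifnb1 had 2 UMIs and Ifng 5, and Ifna1, Ifna2, Ifna4, Ifna5, Ifne, Ifnk, Ifnl2 and Ifnl3 had none, which allows up to 0.000243 UMIs per 10000 each. The other 51 genes of the pathway measured here were ordered by role. Of all genes, 24% were called higher in Col1a1-rich than in other spots at 7 dpi and 23.4% lower. In WT at 21 dpi 27.6% were called higher and 27.6% lower. Of 7 receptors and kinases tested, 5 were higher in Col1a1-rich spots at 7 dpi and 5 in WT at 21 dpi, with Jak1 and Jak2 as the exceptions at both times. Ifnar2 was higher by 1.40 ± 0.14 at 7 dpi and 2.02 ± 0.14 at 21 dpi, and Ifngr1 by 1.36 ± 0.15 and 2.37 ± 0.15. Of the 11 further regulators and sensors 10 were higher at 7 dpi, all but Tlr3, and 11 at 21 dpi.

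Of 31 further interferon-induced genes tested, 28 were higher in Col1a1-rich than in other spots at 7 dpi and 30 at 21 dpi. Of all genes, 24% and 27.6% were. Adar, which edits double-stranded RNA, was among the exceptions at both times (-0.47 ± 0.19 and -0.45 ± 0.18). In Col1a1-rich spots none of the 49 other pathway genes tested was higher at 7 than at 21 dpi, where 1.6% of all genes were. Ifitm2 was lower (-0.88 ± 0.20, edgeR adjusted p = 0.0419), where 2.3% of all genes were. Both counts are near these shares. Of the 49 genes, 16 had an unadjusted p under 0.05. The median difference of the 49 was 0.00, beside 0.71 for the members. The lists were drawn up with results of these data known, so the gap between them is a description. Cxcl9 and Cxcl10, chemokines that attract T cells and are induced by interferon gamma, were both higher in Col1a1-rich spots, by 3.62 ± 0.62 and 1.53 ± 0.45 at 7 dpi and by 5.63 ± 0.73 and 4.29 ± 0.52 at 21 dpi.

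Deleter slices repeated the regional pattern in 2 further mice. Cthrc1 itself was still counted there, at 0.101 and 0.132 UMIs per 10000 in Col1a1-rich spots (95% Poisson intervals 0.0661 to 0.148 and 0.0975 to 0.175), against 0.219 and 0.175 in WT at 21 dpi and 1.16 and 1.09 at 7 dpi. Of 35 members tested, 32 were higher in Col1a1-rich than in other spots, where 30% of all genes were, and 1, Cmpk2, was lower, where 27.5% were. Ifit2 and Ifit3b did not pass (0.38 ± 0.31 and 0.52 ± 0.39). In the ring 19 of 35 were higher, against 9.34% of all genes, and none lower, against 2.21%. The ring calls changed with the Col1a1 threshold. At 2.5 UMIs per 10000 there were 0, and edgeR called 62 of all genes, against 1334 higher and 315 lower in the main fit. At 10 there were 31, given here without the count of all genes. A change particular to the members is therefore not shown. The largest Col1a1-rich difference was that of Ifi47, a GTPase, at 4.70 ± 0.41 (edgeR adjusted p = 3.01e-05).

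Compared with WT at 21 dpi in Col1a1-rich spots, 28 of 36 members had both deleter slices below both WT slices and none had both above, where 19.6% and 17.6% of all genes had. None of 35 passed edgeR's test, nor DESeq2's, and 0.00772% of all genes did, all of these lower. The median difference was -0.63, and 21 members had an unadjusted p under 0.05. Rsad2 had the largest difference, at 0.0779 and 0.0551 UMIs per 10000 in deleter and 0.246 and 0.228 in WT slices (-1.84 ± 0.26, edgeR adjusted p = 0.329). Ifit1 was 0.276 and 0.141 against 0.443 and 0.613 (-1.38 ± 0.31, edgeR adjusted p = 0.671). Without a filter on low counts 14 members were called lower, among 270 of 19675 genes, and without WT slice 1, 4 were, among 155 of 13516. The macrophage and microglia markers were lower too in level, at 81.5 and 79.8 against 99.2 and 101, with none of 8 called. Xist was at 1.16 in deleter slice 1 and 0.0165 in slice 2, so the deleter mice differed in sex from each other. Genotype and capture area cannot be told apart.

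Before 7 dpi there was 1 slice per time, and no test is possible. Which of the pair on that capture area was at rest is not in the labels. The smaller piece of tissue, of 1017 spots, was taken as rest and the larger, of 1726 spots, as 2 dpi. In other spots the summed members were 1.65 UMIs per 10000 at rest (95% Poisson interval 1.58 to 1.71) and 6.79 at 2 dpi (6.65 to 6.94), a ratio of 4.12 (3.94 to 4.31), which covers counting error only. Of 34 members with at least 20 UMIs, 27 were at least 2-fold higher at 2 dpi and none was 2-fold lower, against 15.1% and 3.68% of all genes. In spots with at least 1000 UMIs the ratio was again 4.12. That filter kept 12042679 of the 12066497 UMIs of other spots at 2 dpi, so it could hardly move the ratio. Over all regions at 2 dpi the sum was 4.55 (3.74 to 5.50) in the 375 spots under 1000 UMIs. It was 6.81 (6.67 to 6.96) in the deeper spots.

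At 2 dpi the signal was spread over the slice, and its order by region was not stable. The sum was 11.2 UMIs per 10000 in the 26 Col1a1-rich spots, 6.27 in the ring and 6.79 in other spots, and it reached 9.75 in spots 13 or more steps away. The 26 Col1a1-rich spots held 56316 UMIs and the 514 ring spots 968375, against 12066497 in 1186 other spots. In a shallow spot very few Col1a1 UMIs reach the threshold, so region cannot be told apart from spot depth at 2 dpi. Without spots at the tissue edge the sum was 4.88 in Col1a1-rich spots (8 UMIs, 95% Poisson interval 2.11 to 9.61), 5.23 in the ring and 6.79 in other spots. At rest the 3 Col1a1-rich spots, all at the tissue edge, gave 27 UMIs, or 12.1 per 10000 with an interval of 8.0 to 17.7. That was above 2.73 in the ring and 1.65 in other spots. With 2.5 as the Col1a1 threshold it was 8.26 (5.93 to 11.2) against 1.64 in other spots. The sum was thus higher in Col1a1-rich than in other spots without injury too, in a few spots of 1 mouse and with no test. Ifitm3 was the 1 member with at least 20 UMIs in Col1a1-rich spots. It had 17 UMIs at 2 dpi and 3 at rest, a ratio of 2.24 with an interval of 0.647 to 11.9 that includes no difference. Of all genes with 20 UMIs there, 17.7% were at least 2-fold higher and 8.16% lower. In the ring 6 of 12 members were at least 2-fold higher (13.6% of all genes), and Herc6 was 2-fold lower (4.44%). Ifi27l2a was 0.0446 in other spots at rest and 0.760 at 2 dpi, a ratio of 17.1 (13.4 to 22.1), and a UMI of it was seen in 5.24% and 29.4% of those spots. Ifitm3 went from 0.154 to 1.66, Bst2 from 0.0643 to 0.511 and Lgals3bp from 0.0980 to 0.687. Cmpk2 was 0.232 at rest and 0.195 at 2 dpi.

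The order of times differed among members in other spots. These spots held 92.2% of the UMIs of the slice at 2 dpi, and 76.0% and 39.5% at 7 dpi. From these spots alone, the order of times therefore cannot be told apart from the division of the slices by Col1a1. Levels over whole slices, which this division does not enter, are given after those of other spots. Ifitm3 was higher at 2 dpi, at 1.66, than in either 7 dpi slice, at 1.01 and 0.841. Gbp2 at 2 dpi, 0.179, lay between the 7 dpi slices, 0.241 and 0.101. Isg15 was 0.247 at 2 dpi, between 0.424 and 0.227. Ifi27l2a at 0.760 was below 7 dpi slice 1, at 2.20, and close to slice 2, at 0.789. Over whole slices Ifitm3 at 2 dpi, 1.68, lay between the 7 dpi slices, 1.34 and 2.42. Its higher level at 2 dpi than in either 7 dpi slice was thus not seen there. Gbp2, Isg15 and Ifi27l2a at 2 dpi were below both whole 7 dpi slices. Gbp2 was 0.179 against 0.262 and 0.218, Isg15 0.244 against 0.588 and 0.870, and Ifi27l2a 0.746 against 3.26 and 2.63. These are levels of single slices, with no test. Other cell types changed in other spots as well. The neutrophil genes summed to 0.0146 at rest and 1.18 at 2 dpi, the macrophage and microglia markers to 3.91 and 13.8, and the neuron genes to 46.3 and 24.0. Their part in the members' levels was not tested.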

How the data were processed

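Per the study's methods and the labels, frozen brain slices were run on Visium and aligned to mouse genome mm10 with SpaceRanger 2.0.0. For each of 4 capture areas the authors deposited a matrix of raw UMI counts, which they had not normalised, with the positions of the spots. A capture area holds 2 slices, taken here as its connected pieces of tissue. Spots under tissue were all kept. Regions were set by Col1a1 as given above. UMIs were summed per slice and region and tested with edgeR 4.0.16 (R 4.3.3) by the quasi-likelihood F test after TMM scaling and filterByExpr, with the slice as a block for comparisons between regions. The study tested single spots, which are not replicates, so its test was not repeated. Adjusted p-values are Benjamini-Hochberg over all genes tested, and the threshold was 0.05. A standard error was obtained from the size of a log2 change over the root of its F statistic. For comparisons of times and genotypes, with 2 slices a group, p-values measure the spread between these few mice. For comparisons between regions the slice block takes out differences between mice. Those p-values measure how far the regional differences varied among the slices of the fit. Intervals of levels are exact Poisson intervals (95%), and those of ratios of 2 dpi to rest are exact conditional binomial intervals (95%). The limit given for interferons without a UMI is approximate and is not such an interval. The members, the other gene lists and the tests were chosen with earlier results of these data known. Per-slice values are given for the 14 members with most UMIs in the WT slices at 7 and 21 dpi, and other members are named by role where they pass or miss a test. Per-slice values are also given for Slfn2, Igtp, Rsad2, Zbp1 and Oas1a, which were not chosen by that rule. Of the other pathway genes 61 of 62 were measured. Alternatives were DESeq2 1.42.0, scaling by library size, no filter on low counts, other Col1a1 thresholds and ring widths, no slice block, left-out spots and left-out slices. The fits were tested on counts simulated with a set spread, the same for all genes. A shared expression profile was used for all slices and regions, apart from a small set of changed genes. In the data far more genes differed between regions, so the shares below may not carry over. For 7 against 21 dpi in Col1a1-rich spots, 17.0% of log2 differences of 1 were recovered and 90.4% of those of 2. In the other simulated comparisons 16.7% to 25.3% and 85.9% to 99.1% were. Members with small differences that did not pass may therefore have been missed. The false share of the simulated calls was 3.74% for 7 against 21 dpi in Col1a1-rich spots and 1.69% to 6.14% in the others. It was above the threshold of 0.05 for Col1a1-rich against other spots at 7 dpi (6.14%) and for deleter against WT (5.76%).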

Additional observations from a re-analysis of the deposited data

How the results depend on the processing

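Leaving out 1 slice at a time, the members called ranged from 17 to 36 for Col1a1-rich against other spots at 7 dpi, 33 to 36 in WT at 21 dpi, 1 to 30 for the ring at 7 dpi, 4 to 25 for the ring in WT at 21 dpi, 0 to 7 for the interaction, 6 to 14 for 7 against 21 dpi in Col1a1-rich spots, 1 to 20 in the ring, 0 to 0 in other spots, and 0 to 4 for deleter against WT. For the deleter regional comparisons no slice could be left out, since 1 slice has no residual degrees of freedom. No paired analysis was possible because no replicate numbers are shared between the groups; regions of a slice are paired by the slice block. Without the slice block, 15 members were called in the ring at 7 dpi and 12 in WT at 21 dpi. With 2.5 Col1a1 UMIs per 10000 as the threshold, the ring calls were 6 at 7 dpi, 13 in WT at 21 dpi and 0 in deleter slices, the interaction gave 8 (all lower) and 7 against 21 dpi in Col1a1-rich spots 8. With 10 as the threshold, the ring gave 31 in deleter slices and 8 for 7 against 21 dpi. A ring of 1 step gave 14 at 7 dpi. DESeq2 called 8 for 7 against 21 dpi in Col1a1-rich spots, 9 in other spots and 1 in the interaction. Without a filter on low counts, 7 against 21 dpi gave 29 in the ring and 19 in other spots, the interaction 7 and deleter against WT 14. At least 2 Col1a1-rich neighbours, or no edge spots, gave 1 in the interaction. These counts stand without the share of all genes called in the same refit, so they do not show changes particular to the members.

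The mean sum per 10000 moved with the threshold as well. In Col1a1-rich spots it was 38.8 at 7 dpi and 20.7 in WT at 21 dpi with 10, and 31.8 and 17.0 with 2.5. In the ring it was 12.1 in WT at 21 dpi with 10, and 15.4 and 5.57 at 7 and 21 dpi with 2.5. Without edge spots the ratio of 2 dpi to rest in other spots was 4.42, and no ratio could be formed for the other regions. Cmpk2 at 7 dpi turned to 0.201 and 0.0713 with 10 and 2.5 as the threshold, 0.151 with 2 neighbours, 0.0184 with deleter slices added, 0.0344 without the slice block and 0.0320 without edge spots. Leaving out slices it ranged from -0.324 to 0.283, and it was 0.0248 without WT slice 2 at 21 dpi. Ifitm3 between 7 and 21 dpi ranged from -0.136, without 7 dpi slice 2, to 0.423, without 7 dpi slice 1. The causes were not tested. Of the other values, 129 counts and sums kept their direction and their side of the threshold or moved little (counts by under 1.5 times, sums by less than the replicate spread). Among values of single members 591 did so, 39 lost their call and 5 gained one. Depth limits the rarest members, such as Oas3 with 135 UMIs over all slices.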
